A study of Mus musculus with 6 samples.

Results

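Connexins are the subunits of gap junction channels, and the 8 described here are the connexin genes chosen for the lateral wall of the cochlea: Gjb2, Gjb6, Gja1, Gjb1, Gjb5, Gja4, Gja5 and Gjc1. They were taken as every probe set whose platform annotation gives exactly 1 gene symbol, that symbol being one of the 8, which gave 15 of 34945 such probe sets and 8 of 18193 genes. The values came from stria vascularis RNA of Errb mutant mice, made by a conditional knock-out, and of wild type mice, with 3 pools of each genotype, 10 mice per pool and 1 Affymetrix array per pool. Errb, also written Nr3b2 in the labels, is the nuclear receptor gene Esrrb. The labels give an age, postnatal days 3 to 5, for wild type replicate 1, and neither the age of the other pools nor the Cre driver of the mutation is given in the sources used here. The series text names inner ears as what was pooled, so the samples, labelled stria vascularis, may hold more than the stria.

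In a gap junction, connexins of one cell dock with those of its neighbour and let ions and small metabolites pass. The stria vascularis secretes potassium into endolymph and generates the endocochlear potential; its basal and intermediate cells are joined by gap junctions to the fibrocytes of the spiral ligament, whereas its marginal cells are not coupled to them. Gjb2 (protein Cx26) and Gjb6 (Cx30) encode the main connexins of these networks, form mixed channels, and are deafness genes in humans.

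Values are log2 expression per probe set, and differences are Errb mutant minus wild type within the same replicate number, as the mean ± SD of 3 pairs. They were tested two-sided with limma, blocked by replicate number (the paired fit), and p-values were adjusted by Benjamini-Hochberg across all 45037 probe sets, with 0.05 as the threshold. Same-numbered arrays deviated together from their genotype means, with correlations of 0.879, 0.818 and 0.746 in pairs 1 to 3, and the array medians were 6.08, 6.94 and 6.38 in the mutant and 6.07, 6.95 and 6.42 in wild type. Pair 1 stood apart: 34.2% of its probe sets had exactly equal values on both arrays, and its 3' minus 5' Gapdh control gap, a sign of RNA quality, was 2.57 in the mutant and 2.28 in wild type, against -0.04 to 0.51 on the other 4 arrays. Esrrb averaged 10.01 ± 0.26 in the mutant and 10.08 ± 0.47 in wild type (SD, n = 3), by the best expressed of its 3 probe sets. The others are not shown here. The place of this probe set relative to the deleted part is not given, so it checks nothing about the labels. Of the marker genes of strial cells, 8 of 9 for marginal, 7 of 8 for intermediate and 5 of 6 for basal cells lay above the median level of all probe sets, as did 6 of 6 for fibrocytes, 8 of 8 for endothelial cells, 5 of 5 for macrophages, 5 of 7 for supporting cells, 1 of 5 for neurons and 11502 of all 18193 genes. These counts do not set the stria apart from the tissue around it. Nothing says whether the pools came from separate litters, so p-values speak only for these samples. The limma p-values also rest partly on the variance of all probe sets, among them those exactly equal in pair 1. What these equal values do to the p-values was not tested.

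Gjb6 fell in the mutant and was the one connexin of the 8 to pass. No connexin rose. Gjb2 had the next largest difference, also negative, and the other 6 genes had mean differences between -0.21 and 0.15. Read at each gene's best expressed probe set, 1 of 8 passed as lower, where 0.132% of all genes did, and 0 of 8 passed as higher, where 0.0165% did. At an unadjusted p under 0.05 the same limma fit held 2 lower connexin probe sets of 15 (Gjb6 and Gjb2; 3.07% of all probe sets) and 1 higher (of Gja1; 4.11%). The median difference of the 8 genes was -0.07, beside 0.004 for all genes. As the 8 were chosen with earlier results of these data known, the shares of all genes serve as description only.

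**Figure D1:**
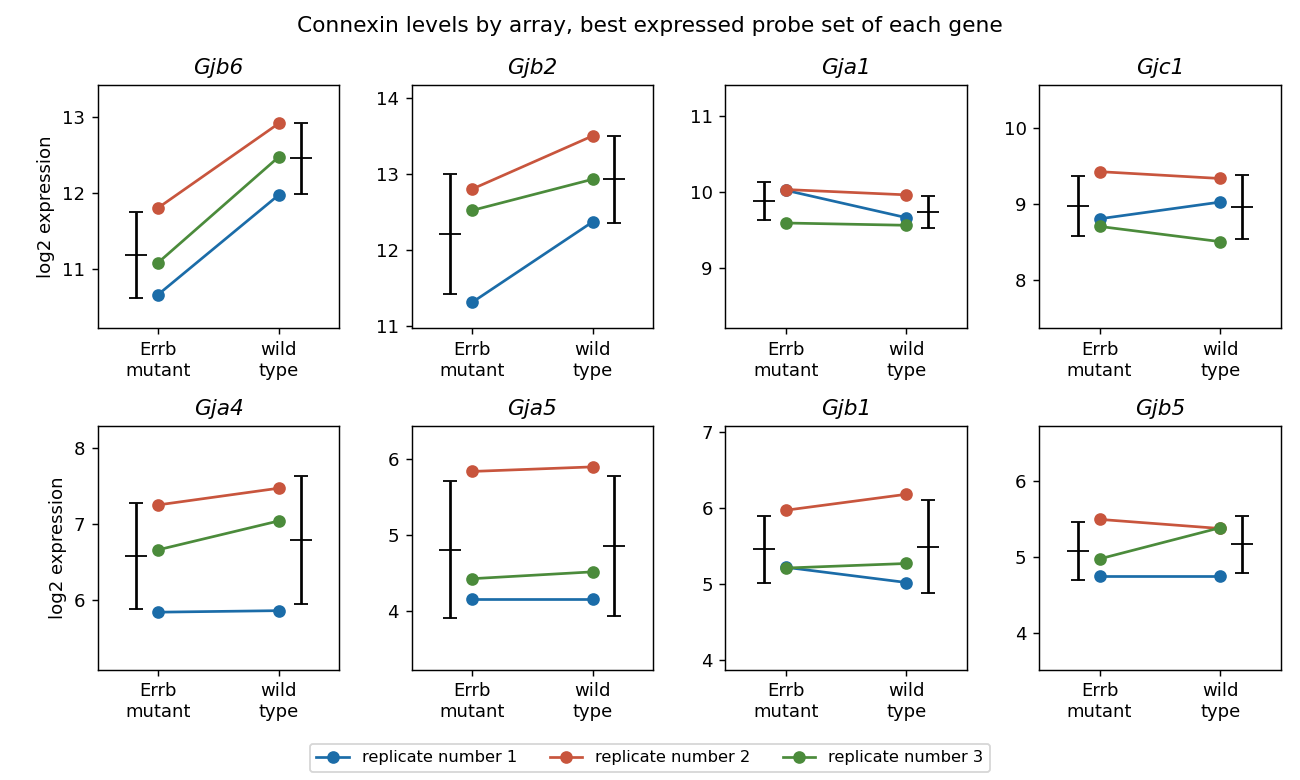
Log2 expression of the best expressed probe set of each of the 8 connexin genes (y axis, each panel spanning the same number of log2 units) on the 3 Errb mutant and 3 wild type arrays (x axis); points joined by a line share a replicate number, and black marks give the mean ± SD. The 3 Gjb6 lines all slope the same way and the mutant points (10.66 to 11.80) lie below the wild type points (11.97 to 12.91), whereas the groups overlap in the other 7 panels.

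Gjb6 encodes Cx30, a connexin of cochlear supporting cells, strial cells and fibrocytes. Its single probe set read 10.66, 11.80 and 11.08 in mutant replicates 1 to 3, against 11.97, 12.91 and 12.47 in wild type replicates 1 to 3. Every mutant array lay below every wild type array, and no other of the 8 genes showed this in either direction; 0.385% of all genes had all mutant arrays below all wild type arrays and 0.682% had them all above. The pair differences were -1.31, -1.11 and -1.38, a mean of -1.27 ± 0.14 (SD, n = 3 pairs; 95% interval -1.47 to -1.06). The mutant level was thus 41.5% of the wild type level, a 2.41-fold reduction, with adjusted p = 0.0304 in the paired limma fit. In size this was the 20th most negative difference among 18193 genes. The call needed the pairing and all pairs: without the replicate block the same difference had adjusted p = 1 in limma, where 0.0055% of all genes passed as lower, and with 1 pair left out, which leaves 1 residual degree of freedom, adjusted p was 0.103, 0.879 and 0.684 without replicate numbers 1, 2 and 3. The size moved little, to -1.25, -1.35 and -1.21. With 3 pairs an exact permutation test cannot go below p = 0.25, the value it gave for Gjb6. In these bulk samples, fewer cells that make Gjb6 and less Gjb6 RNA per cell cannot be told apart.

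Gjb2 encodes Cx26, the partner of Cx30 in mixed channels. It read 11.31, 12.80 and 12.52 in the mutant, against 12.37, 13.50 and 12.93 in wild type. The mutant array was the lower one in each pair, but the groups overlapped, because mutant replicates 2 and 3 lay above wild type replicate 1. The difference was -0.72 ± 0.32, with pair values of -1.06, -0.70 and -0.41, and the mutant level was 60.6% of wild type. It did not pass over all probe sets (adjusted p = 0.302 in the paired limma fit, 361st of 45037 by p). Its 95% interval from that fit lay below 0, at -1.06 to -0.39, and rests partly on the variance of other probe sets. Of the 8 genes 3 were lower in all 3 pairs (Gjb6, Gjb2 and Gja4), where 9.03% of all genes were, and 1 was higher in all 3 (Gja1), where 12.9% were.

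The difference of Gjb6 was more negative than that of Gjb2 in each pair, by 0.24, 0.42 and 0.97 on the log2 scale. The mean of Gjb6 minus Gjb2 was -0.54 ± 0.38 (SD, n = 3 pairs; exact sign permutation p = 0.25, the smallest possible). The gap was smallest in pair 1, where Gjb2 had its largest difference, and widest in pair 3, where Gjb2 had its smallest. The pair differences of Gjb6 spanned 0.27 and those of Gjb2 spanned 0.65.

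Gjb2 and Gjb6 are neighbours on chromosome 14 in the RefSeq gene table of assembly GRCm38.p6, with 1 long noncoding RNA entry, Gm32912, between them and Gja3 on the other side of Gjb2. Gja3, a lens connexin gene, differed by -0.18 (adjusted p = 0.715, paired limma) from a level below the median of all probe sets. Of the 3 table entries on each side of this cluster, Zmym2 (0.04, adjusted p = 0.900) and Cryl1 (-0.13, adjusted p = 0.791) were measured and neither passed. Of the 5 genes measured in this stretch, Gjb6 and Gjb2 had the most negative differences. Because both members with the most negative differences are neighbours, their promoter windows are shown, 250 bases before to 50 after the RefSeq start on the gene's strand, from the same build, Gjb6 at chr14:57133562-57133861 and Gjb2 at chr14:57104653-57104952, both on the minus strand; capitals mark GGGCGG, the core of an Sp1 box, on either strand.
Gjb6: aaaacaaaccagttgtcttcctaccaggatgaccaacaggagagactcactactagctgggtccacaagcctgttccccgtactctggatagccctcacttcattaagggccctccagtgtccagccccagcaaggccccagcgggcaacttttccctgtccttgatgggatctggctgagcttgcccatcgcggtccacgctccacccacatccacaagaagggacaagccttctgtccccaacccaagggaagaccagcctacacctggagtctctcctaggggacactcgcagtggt
Gjb2: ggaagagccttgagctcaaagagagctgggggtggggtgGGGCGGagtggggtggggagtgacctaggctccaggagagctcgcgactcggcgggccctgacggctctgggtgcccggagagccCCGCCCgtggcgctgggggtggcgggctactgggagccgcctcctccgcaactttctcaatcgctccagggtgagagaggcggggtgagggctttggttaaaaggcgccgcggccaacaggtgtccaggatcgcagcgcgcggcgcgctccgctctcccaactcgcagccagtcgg

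The Gjb2 window is 70% G or C and holds GGGCGG at 2 places, 211 and 126 bases before the start, the second on the other strand. The Gjb6 window is 57.3% G or C and holds none. GGGCGG occurs in 35.7% of all 32851 RefSeq windows of this length and in 4 of the 10 windows that the table holds for 7 of the connexin genes. Estrogen-related receptors bind a half-site whose core reads AAGGTCA, most often with the extension TNAAGGTCA, of which TCAAGGTCA is one form; each longer motif contains the core. Neither the Gjb6 nor the Gjb2 window holds AAGGTCA on either strand. The core is in 4.72% of all windows, TNAAGGTCA in 1.28% and TCAAGGTCA in 0.423%. Among the connexins the core occurred in 2 windows, of genes that did not pass: 1 of the 4 Gjb1 windows, in the form TCAAGGTCA on the opposite strand 108 bases before the start, and the Gjb5 window, 193 bases before it. They are shown with 15 bases on each side and the core in capitals, Gjb1 at chrX:101381995-101382031 on the plus strand and Gjb5 at chr4:127358336-127358372 on the minus strand. The E-box CACGTG, in 7.15% of all windows, was in 0 of the 10.
Gjb1: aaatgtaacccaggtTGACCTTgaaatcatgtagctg
Gjb5: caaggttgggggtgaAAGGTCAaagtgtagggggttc

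Gja1 encodes Cx43, the most widely expressed connexin, found in heart, bone, glia and connective tissue. Its best expressed probe set read 10.02, 10.03 and 9.59 in the mutant, against 9.66, 9.96 and 9.56 in wild type. Levels were close in pairs 2 and 3, and the mutant was the higher one by 0.36 in pair 1, the pair with the widest Gapdh control gap; the groups overlapped. The difference was 0.15 ± 0.18 (95% interval -0.08 to 0.38; adjusted p = 0.750, paired limma).

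The 6 probe sets of Gja1 did not move alike, and 5 of them had positive mean differences, between 0.14 and 0.33. The most positive read 8.78, 8.57 and 8.09 in the mutant, against 8.23, 8.41 and 7.80 in wild type, a difference of 0.33 ± 0.20 with an unadjusted p = 0.0169 and adjusted p = 0.542 in the paired limma fit. The least expressed probe set differed by -0.36 ± 0.82, with pair values of 0.00, 0.22 and -1.29. In pair 1 it read 5.02 on both arrays, exactly equal, and its negative mean came from pair 3, where it was 6.49 in the mutant and 7.78 in wild type; without replicate number 3 the mean was 0.11. None of the 6 passed.

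**Figure D2:**
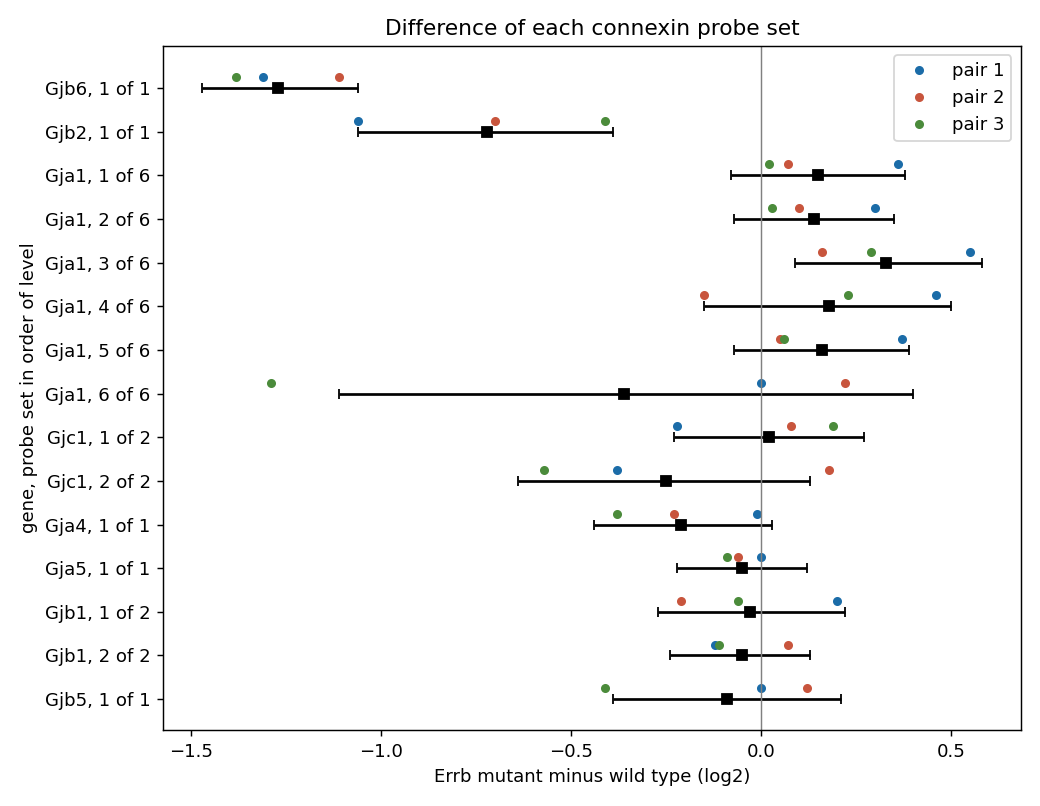
Log2 difference, Errb mutant minus wild type (x axis), for the 15 probe sets of the 8 connexin genes (y axis, numbered within a gene from the highest level down); squares and bars give the mean and the 95% interval of the paired limma fit, and coloured points the 3 pairs. The intervals of Gjb6 (-1.47 to -1.06) and Gjb2 (-1.06 to -0.39) lie below 0, that of 1 Gja1 probe set (0.09 to 0.58) lies above it, and the other 12 include 0.

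The vascular connexins showed small differences. Gja4 encodes Cx37 of arterial endothelium and read 5.84, 7.25 and 6.66 in the mutant, against 5.86, 7.47 and 7.04 in wild type. The mutant array was lower in each pair, by 0.01 in pair 1 and 0.38 in pair 3 at the extremes, and the groups overlapped almost fully. The difference was -0.21 ± 0.19 (95% interval -0.44 to 0.03; adjusted p = 0.730, paired limma). Gja5 encodes Cx40, also of arterial endothelium, and read 4.16, 5.84 and 4.43 in the mutant and 4.16, 5.90 and 4.52 in wild type. The pair 1 values were exactly equal and the others within 0.1 of each other, a difference of -0.05 ± 0.05 (95% interval -0.22 to 0.12; adjusted p = 0.850).

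Gjc1 encodes Cx45, a connexin of smooth muscle and of the developing heart. Its better expressed probe set read 8.81, 9.43 and 8.71 in the mutant and 9.03, 9.34 and 8.51 in wild type, with pair differences of both signs and a mean of 0.02 ± 0.21 (95% interval -0.23 to 0.27; adjusted p = 0.963, paired limma). Its second probe set read 7.65, 9.07 and 7.99 in the mutant, against 8.03, 8.89 and 8.55 in wild type, a difference of -0.25 ± 0.39 (adjusted p = 0.750). The pair 3 values were 0.19 and -0.57 by the 2 probe sets, so they disagreed in sign there, and they agreed in pairs 1 and 2.

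Gjb1 and Gjb5 read below the median level of all probe sets, as Gja5 did, and signal over background is not given, so these values may not track their transcripts. Gjb1 encodes Cx32, the connexin of Schwann cells and liver; its better expressed probe set read 5.22, 5.97 and 5.21 in the mutant and 5.02, 6.18 and 5.27 in wild type. That is a difference of -0.03 ± 0.21 (adjusted p = 0.948, paired limma), and the second probe set differed by -0.05 ± 0.11. Gjb5 encodes Cx31.1, a connexin of skin keratinocytes; it read 4.75, 5.50 and 4.98 in the mutant and 4.75, 5.38 and 5.39 in wild type. Its pair 1 values were exactly equal, pairs 2 and 3 had opposite signs (0.12 and -0.41), and the mean was -0.09 ± 0.28 (adjusted p = 0.841). In all, 3 of the 15 probe sets had exactly equal values in pair 1 and 0 in pairs 2 and 3.

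**Figure D3:**
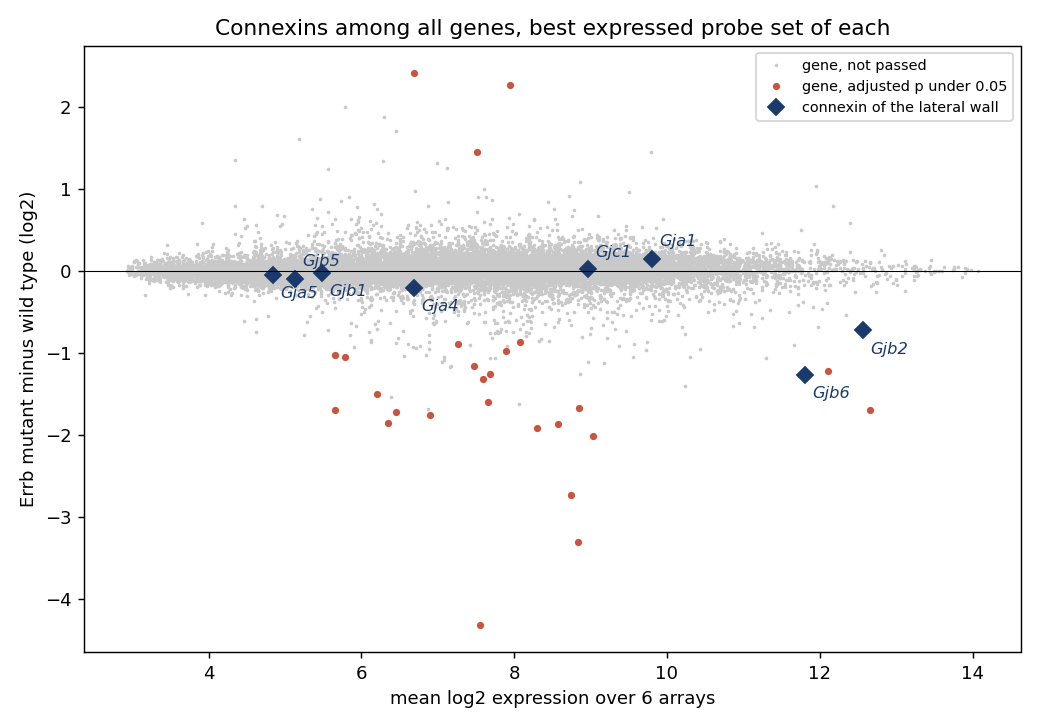
Errb mutant minus wild type (y axis, log2, mean of 3 pairs) against mean log2 expression over 6 arrays (x axis) for 18193 genes by their best expressed probe sets; red points passed the paired limma fit and blue diamonds are the 8 connexins. Gjb6 (-1.27) and Gjb2 (-0.72) lie below the bulk of the genes at high levels, and the other 6 connexins lie within it.

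The rest of the gap junction pathway was measured through 9 other connexin and pannexin genes and 20 genes for proteins that bind, anchor or turn over gap junctions. None of the 29 passed in the paired fit. Of all genes, 0.132% passed as lower and 0.0165% as higher, so a count of 0 does not set these genes apart. The connexin and pannexin genes had a median of -0.02, with 5 negative and 4 positive. The junction partners had a median of 0.02, with 8 negative and 12 positive. Of all 18193 genes, 8846 were negative and 9338 positive. By the rule for named genes, which took the 2 with the highest level, the first list gives Panx1, a channel protein gene (0.06 ± 0.30, adjusted p = 0.909), and Panx3, its relative in bone and cartilage. Panx3 read 6.98, 7.70 and 7.12 in the mutant, against 5.43, 7.03 and 6.97 in wild type. Its difference of 0.79 ± 0.71 (adjusted p = 0.620) was 1.56 in pair 1, 0.66 in pair 2 and 0.15 in pair 3. The second list gives Ctnnb1, the beta-catenin gene (-0.07 ± 0.04, adjusted p = 0.804), and Nedd4, a ubiquitin ligase gene whose product targets Cx43 (0.19 ± 0.19, adjusted p = 0.743). Of the other partners, chosen here after their values were seen, Ocln, the tight junction gene of occludin, differed most, by -0.69 ± 0.27 (adjusted p = 0.257), with 7.53, 8.89 and 8.10 in the mutant and 8.50, 9.32 and 8.77 in wild type. Tjp1, whose product ZO-1 anchors connexins, was at 11.50 ± 0.28 in the mutant and 11.46 ± 0.33 in wild type (adjusted p = 0.886).

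The genes with pair differences most like those of Gjb6 were sought among 11501 others above the median level, by Euclidean distance over the 3 pairs. They were Hs3st6, a heparan sulfate sulfotransferase gene (distance 0.245), Mt3, a metallothionein gene (0.298), Slc38a5, an amino acid transporter gene (0.361), Slc12a2, the basolateral sodium-potassium-chloride cotransporter gene of marginal cells (0.417), and Ppp2r2c, a phosphatase subunit gene (0.447). Their differences lay between -1.32 and -1.16, and the first 4 passed the paired limma fit (adjusted p between 0.0285 and 0.0456), while Ppp2r2c did not (0.0858). The genes most like Gjb2 were Tmcc3 (distance 0.127), Cds1, a lipid synthesis enzyme gene (0.149), Eppk1, the epiplakin gene (0.162), Mcoln3, a cation channel gene of hair cells and melanocytes (0.194), and Dapl1 (0.218). These 5 differed by -0.80 to -0.65 and none passed (adjusted p between 0.180 and 0.413). The genes were picked by these pair differences, so their sizes and calls largely follow from that choice. With 3 values per gene, such likeness describes these pools only.

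Markers of the cells that could supply connexin RNA were set beside these values. The lists were chosen with earlier results of these data known, so a count set beside the share of all genes is a description only. Of 9 marginal cell markers 4 fell, namely Kcne1, Kcnq1, Slc12a2 and Atp13a5, where 0.132% of all genes passed as lower. The other 5 did not pass; all 9 had negative means, where 8846 of 18193 genes did, and the median was -1.22. The 9 include Esrrb itself, at -0.07 with pairs of both signs, and Lmx1a, at 0.00, -0.09 and -1.08 in pairs 1 to 3. Their summed linear level ran from 3697 to 7238 in the mutant and from 9175 to 17555 in wild type, or 0.40, 0.41 and 0.50 of wild type in pairs 1 to 3. Such a sum is weighted to the best expressed genes of its list, here Slc12a2, for intermediate cells Dct, for basal cells Tjp1 and for fibrocytes Car3. None of the 8 intermediate cell markers passed; 7 were negative, the median was -0.64, and the summed level ran from 4225 to 6836 in the mutant and from 6244 to 11655 in wild type (0.68, 0.59 and 0.62). For Gjb6 and Gjb2, intermediate cells are one of the coupled cell types, and the part of these marker differences in the connexin values was not tested.

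Basal cell markers, the other coupled strial type, did not pass in any of 6 genes and had a median of -0.08, with a summed level from 5168 to 9201 in the mutant and from 5848 to 10484 in wild type (0.88, 0.88 and 0.99 of wild type). The differences ran from -0.37 for Cldn11, the tight junction gene of basal cells, to 0.28 for Sox8. That of Tjp1, to which the sum is weighted, was 0.04. Of the 6 basal cell markers, 4 had negative and 2 positive means. Cldn11 (-0.46, -0.48 and -0.18 in pairs 1 to 3) and Slc2a1 (-0.18, -0.14 and -0.20) were lower in each pair. Fibrocyte markers had 0 of 6 passing and a median of 0.03 (summed level 16040 to 34758 in the mutant and 16847 to 33732 in wild type). Of the 6 genes, 2 had negative and 4 positive means, and Otos was the most negative, at -0.44, -0.11 and -1.02 in pairs 1 to 3. Cochlear supporting cells, which also make Gjb2 and Gjb6, had 0 of 7 passing and a median of 0.20, with summed ratios of 0.96, 1.86 and 1.20 (1172 to 3772 in the mutant and 1031 to 2032 in wild type). The part of these cell types in the Gjb6 and Gjb2 values was not tested either.

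**Figure D4:**
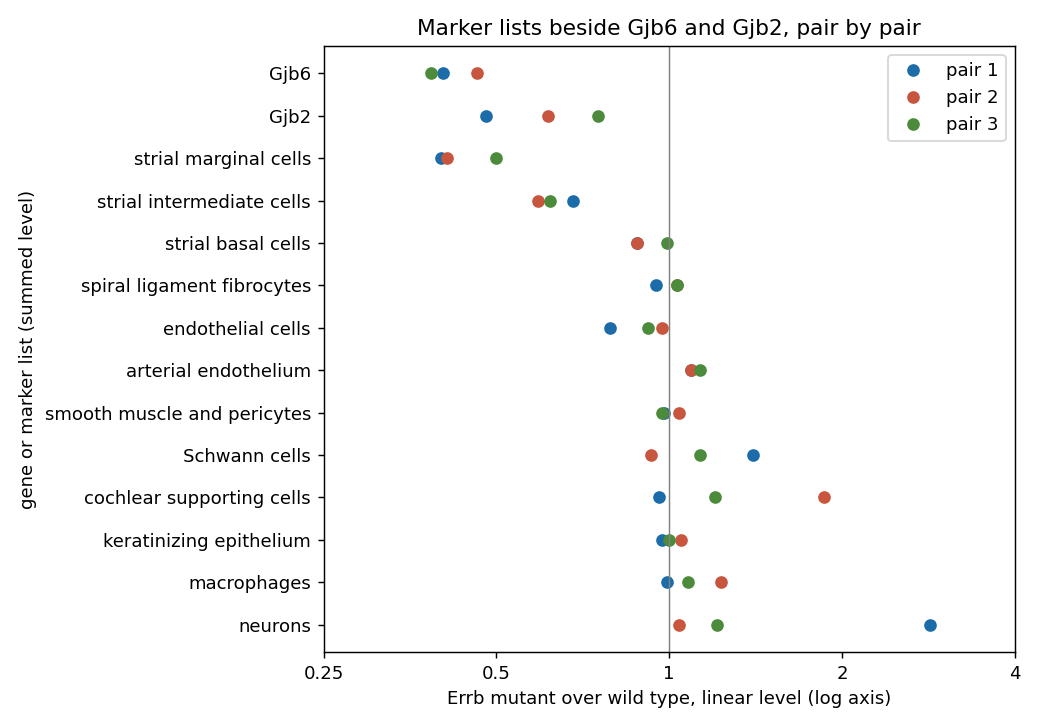
Ratio of Errb mutant to wild type linear level (x axis, log scale) in each of the 3 pairs for Gjb6, for Gjb2 and for the summed level of 12 marker lists (y axis). Each sum is weighted to the best expressed genes of its list. Marginal cell markers (0.40 to 0.50) and intermediate cell markers (0.59 to 0.68) lie left of 1 with Gjb6 and Gjb2. Basal cell (0.88 to 0.99), fibrocyte and most vascular lists lie nearer to 1, and the neuron list reaches 2.85 in pair 1.

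Vascular lists bear on Gja4, Gja5 and Gjc1, whose differences were small. Endothelial markers had 0 of 8 passing, all negative, with a median of -0.14 and a summed level from 1624 to 4301 in the mutant and from 2064 to 4443 in wild type. Arterial markers had 0 of 6 passing and a median of -0.02 (1816 to 2728 in the mutant, 1662 to 2499 in wild type), and smooth muscle and pericyte markers 0 of 8 and -0.05 (2695 to 5269 in the mutant, 2740 to 5045 in wild type). For Gjb1, the 4 measured Schwann cell markers had a median of 0.13 with 0 passing (2853 to 4084 in the mutant, 2156 to 4378 in wild type), and for Gjb5 the 7 markers of keratinizing epithelium had a median of 0.04 with 0 passing (504 to 941 in the mutant, 518 to 892 in wild type). Neuron markers, 0 of 5 passing, had a median of 1.36, with 3.58 in pair 1, 0.34 in pair 2 and 0.24 in pair 3 (471 to 1608 in the mutant, 390 to 569 in wild type), and macrophage markers, 0 of 5 passing, one of 0.08 (2792 to 5896 in the mutant, 2831 to 4787 in wild type). Pair 1, which held this neuron difference, was also the pair with the most negative value of Gjb2 and the most positive ones of 5 of the 6 Gja1 probe sets. Without replicate number 1 Gjb2 differed by -0.55 and Gjb6 by -1.25.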

How the data were processed

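Total RNA from 6 pools of mouse stria vascularis, 3 Errb mutant and 3 wild type, was hybridised to 1 array each. The submitters' processing notes name RMA for the deposited log2 expression values; which version and which settings were run are not stated in the sources used here. Their range of 2.33 to 14.6 fits a log2 scale. Of 45101 probe sets, 64 controls were left out; 34945 of the 45037 others had 1 gene symbol in the platform annotation, 932 several and 9160 none. A gene was read at its probe set with the highest mean. R 4.3.3 and limma 3.58.1 (lmFit, eBayes) served for the fit, blocked by replicate number. The numbers in the labels were taken as pairs because each pair's correlation of deviations exceeded 0.1; equal values occurred within same-numbered pairs and in 0 cases between other arrays, so separate processing of each pair could also raise these correlations. Listed genes were matched by symbol or RefSeq gene identifier. Promoter windows are RefSeq's, GRCm38.p6. On simulated data with pairs built in, over 45037 probe sets, the paired fit recovered 82 of 100 changes of 1 and 95 of 100 changes of 2 on the log2 scale with 13 false calls, the unpaired fit 0 with 0. The simulated noise followed the paired fit and held no exactly equal values, so it cannot show whether the replicate numbers mark true pairs. The members, lists and tests were chosen with earlier results of these data known. Named were the members, passing genes of the connexin and pannexin and the junction partner lists (where none passed, the 2 of highest level), the cluster neighbours and the 5 genes most like Gjb6 and Gjb2; other names were chosen after their values were seen. Alternatives were normalization, centring, a level filter, trend and robust eBayes, array weights, no block, probe set class or mean, and leaving out each replicate number.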

Additional observations from a re-analysis of the deposited data

How the results depend on the processing

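The fall of Gjb6 kept its direction under all 13 alternatives, between -1.35 and -1.21, and passed in 7 of them. It did not pass in 6. The replicate block decided the call: with no replicate block the difference was -1.27 with adjusted p = 1 and 0 connexins passed, against 3 of all probe sets where the paired fit called 42. With no replicate block and either quantile normalization or median centring, both chosen after seeing the data, Gjb6 was at -1.26 (adjusted p = 0.223 for both), 0 connexins and 2 of all probe sets passed. Without 1 replicate number Gjb6 ranged from -1.35 to -1.21 and Gjb2 from -0.88 to -0.55; connexins passed in 0 cases, and all probe sets in 0 to 7. Array weights raised the count of all probe sets to 77. Gjb2 did not pass under any alternative. None of the 29 other connexin, pannexin and junction partner genes passed under any. Of 151 values of the other connexin probe sets under the alternatives, 0 passed and 7 changed sign. Leaving out 1 replicate number in turn, the lowest Gja1 probe set ranged from -0.65 to 0.11, Gjb5 from -0.20 to 0.06, and the better expressed probe sets of Gjb1 and Gjc1 from -0.14 to 0.07 and from -0.07 to 0.14. That Gjc1 probe set was also at -0.02 with array weights, and Gjc1 at -0.12 as the mean of its probe sets. The causes were not tested. Signal over background is not given, which limits what the probe sets below the median level show.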
